A study of Homo sapiens with 6 samples.

Results

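The 34 genes described here act at the passage from G1 into S phase or in DNA replication itself. They were chosen by symbol, and each of the 34 symbols matched 1 row among the 60612 genes of the deposited table. The rows were followed in 6 RNA-seq libraries of ARPE-19, an established line of human retinal pigment epithelium. Transfection was with miR-204-5p in 3 of the libraries and with a control, named miR-NC in the labels, in the other 3. The titles number the libraries 1 to 3 in each group, and the submitters call them biological replications. The labels do not say when after transfection the RNA was taken or how much microRNA was given. The series set out to find possible targets of miR-204-5p.

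Entry into S phase depends on cyclin D with CDK4 and cyclin E with CDK2, which phosphorylate the retinoblastoma protein and release the E2F transcription factors. E2F factors then raise the genes that license origins, unwind and copy DNA, and make deoxynucleotides. Licensing loads the MCM helicase onto origins with ORC1, CDC6 and CDT1. CDC45 and the GINS complex then turn it into the working helicase. Mature pigment epithelium in the eye rarely divides, whereas ARPE-19 cells proliferate in culture.

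Because a microRNA pairs with transcripts mainly through its seed (bases 2 to 8), the longest 3' UTR annotated for each gene was scanned for matches to its seed. The sequences are those of the microRNA and the members with a complete 8mer site, AAAGGGAA. The seed and the site are in capitals. The microRNA sequence is from RefSeq (GRCh38.p14, chr9:70810031-70810052, minus strand). The sites are from GENCODE release 29 (GRCh38), in the last exon: RRM2 at chr2:10131323-10131347 (plus strand), GINS3 at chr16:58405279-58405303 (plus strand) and POLA1 at chrX:24996966-24996986 (plus strand, up to the last base of the transcript).
hsa-miR-204-5p: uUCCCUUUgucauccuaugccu
RRM2: cctaatcagttgAAAGGGAAacaag
GINS3: gataaaggaggaAAAGGGAAaggca
POLA1: ataaagttttctAAAGGGAAa

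An 8mer was thus present in 3 of the 31 members that passed the filter on low values (9.68%) and in 8.65% of the 10835 tested genes with a 3' UTR. No member held the shorter 7mer-m8 site AAAGGGA outside an 8mer. The 7mer-A1 site AAGGGAA stood in CCND1, CDT1, E2F1 and CLSPN, and a second time in GINS3. Counting all 3 classes, 22.6% of the tested members and 27.4% of the tested genes held a site.

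With miR-204-5p the list as a whole showed no common direction. The gene with the largest difference was RRM2, which encodes the small subunit of ribonucleotide reductase and was lower on average. No member passed the test across all genes. Fold changes are differences of log2(FPKM + 1) between the groups, miR-204-5p minus miR-NC, and this scale understates the change of low genes. FPKM divides the fragments of a gene by its length and by the mapped fragments of the library, so levels of different genes are comparable per length.

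RRM2 (chromosome 2, 10120698 to 10131419, plus strand, GRCh38) stood at 2.76, 3.39 and 1.92 FPKM in miR-204-5p replicates 1, 2 and 3. The miR-NC libraries held 8.12, 3.14 and 6.97 FPKM. The 3 miR-204-5p libraries and miR-NC replicate 2 lay close together, and miR-NC replicates 1 and 3 stood above them, so the groups overlapped at replicate 2. The mean of the miR-204-5p group was 2.69 ± 0.74 FPKM (SD, n = 3). That of the miR-NC group was 6.07 ± 2.61 FPKM (SD, n = 3). The log2 fold change of RRM2 was -0.88 with a standard error of 0.33 and 95% limits of -1.67 to -0.09. Its unadjusted p was 0.0334 and its adjusted p was 1.00 (limma, Benjamini-Hochberg over 13151 genes), so RRM2 was not called.

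The RRM2 difference rested on more than 1 library. Leaving out miR-NC replicate 2 gave an unadjusted p of 0.00274 (limma), and leaving out miR-204-5p replicate 2 gave 0.0343. With miR-204-5p replicate 1 or 3 left out, it rose to 0.0690 or 0.0982. With miR-NC replicate 1 or 3 left out, it rose to 0.113 or 0.0884. In each of these fits the fold change stayed negative, between -1.23 and -0.66. The rows of the processed copies RRM2P2, RRM2P3 and RRM2P4 did not exceed 0.0689 FPKM, and how reads shared with RRM2 were assigned is not known. In the authors' deposited table RRM2 had a ratio of 0.443, a p of 0.00648 and a q of 1, and it was the 1 member of the 34 that the table marks as changed, where the authors mark 0.32% of all 60612 genes (194). Of these 60612 genes, 47461 were below the filter on low values, against 3 of the 34 members, so the 2 shares have unlike bases.

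RRM1, the large subunit of the same enzyme, did not follow RRM2. It stood at 14.0, 16.8 and 9.93 FPKM with miR-204-5p and at 16.4, 14.9 and 9.57 FPKM with miR-NC. Replicate 3 was the lowest of each group, and the groups overlapped throughout. The log2 fold change of RRM1 was 0.00 (-0.0020), with limits of -0.64 to 0.63. The level of RRM2 relative to RRM1, a ratio chosen after the values were seen and not tested, was 0.197, 0.202 and 0.194 with miR-204-5p and 0.495, 0.210 and 0.728 with miR-NC. TYMS, thymidylate synthase, stood at 30.0, 30.4 and 14.1 FPKM against 34.3, 28.7 and 18.8 FPKM. TYMS was again lowest in replicate 3 of each group and its log2 fold change was -0.17 (limits -1.0 to 0.67). TYMSOS, which overlaps TYMS on the other strand, stood at 0.480 to 1.27 FPKM. Where this gene pair overlaps, reads can be told apart only by strand, and the counter's strand setting was not given in the sources used here.

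**Figure D1:**
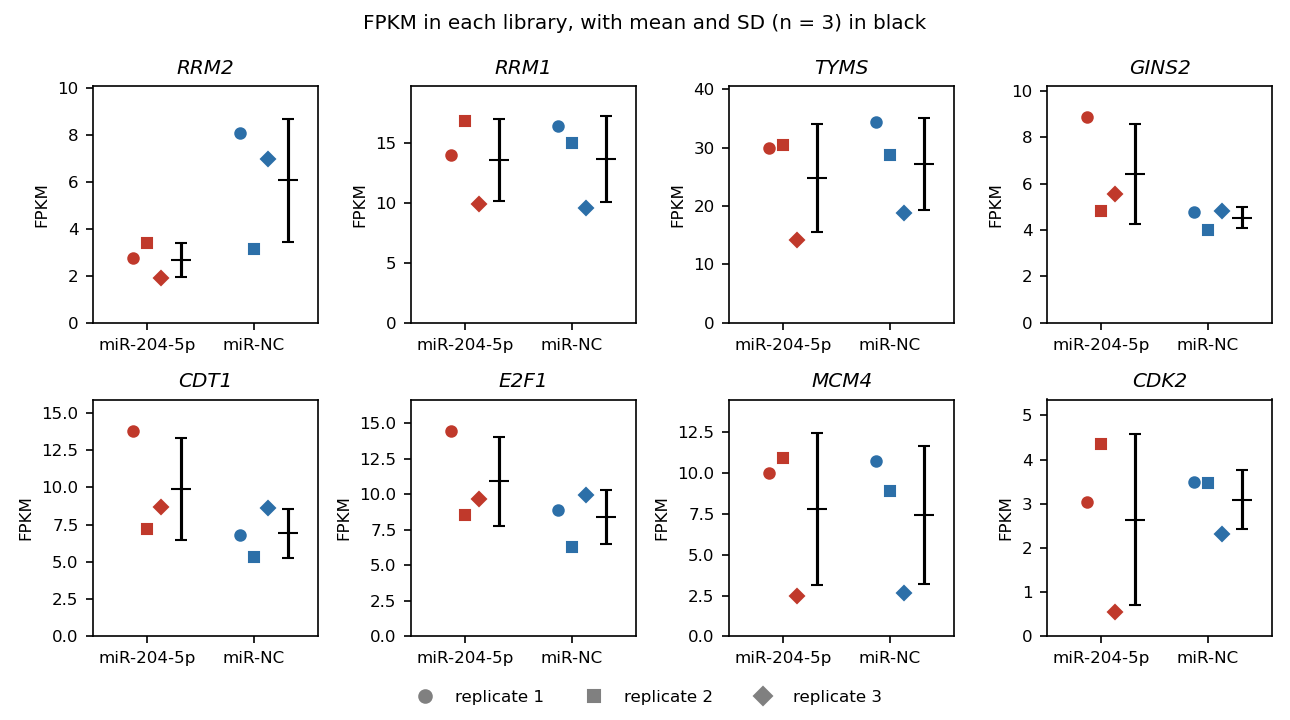
FPKM of 8 genes in each library, with the replicate number as the marker shape and the group mean ± SD (n = 3) in black. RRM2 lay at 1.92 to 3.39 FPKM with miR-204-5p and at 3.14 to 8.12 FPKM with miR-NC, while MCM4 was low in replicate 3 of both groups.

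Among all 31 tested members, 0 had an adjusted p under 0.05 (limma), as did 0 of the 13151 genes tested (0%). At an unadjusted p under 0.05, 1 member (RRM2) was lower, where 0.92% of all genes were, and 0 members were higher, where 1.16% of all genes were. Both directions together gave 1 of 31 members against 2.08% of all genes. Fold changes were positive in 17 members and negative in 14, with a median of 0.04, and the median over all genes tested was -0.02. Leaving out miR-204-5p replicate 1 gave the members a median of -0.05, and leaving out replicate 3 of that group gave 0.18. In 1 of 31 members (3.23%) the values of the groups did not overlap, against 5.95% of all genes tested. That member was GINS2.

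**Figure D2:**
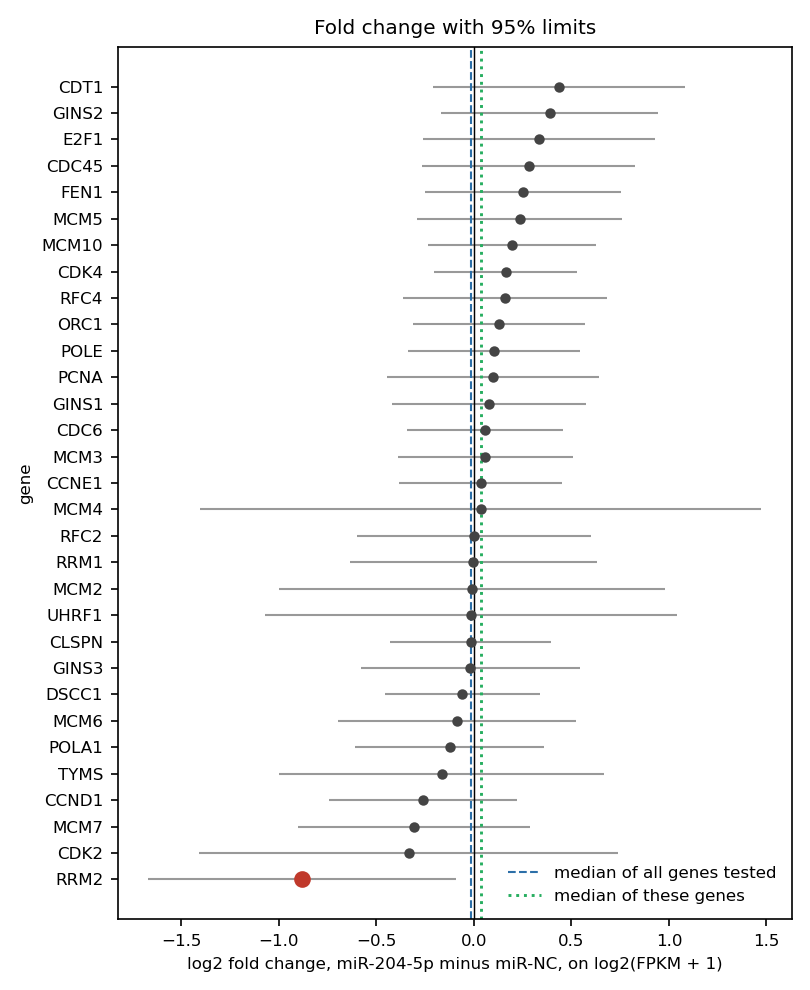
Log2 fold change of the 31 tested members (points) with 95% limits from the fit, ordered by size, with RRM2 in red and lines at the medians of these genes (0.04) and of all genes tested (-0.02). The limits of RRM2, from -1.67 to -0.09, lie below 0, and those of the other 30 members include 0.

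Cyclin and kinase genes were dominated by CCND1, cyclin D1, which had the highest level of the list. It stood at 241, 187 and 247 FPKM with miR-204-5p and at 276, 223 and 312 FPKM with miR-NC. Each group had its lowest value in replicate 2, and the groups overlapped. For CCND1 the log2 fold change was -0.26 (limits -0.74 to 0.22). After quantile normalization it was -0.40, with an unadjusted p of 0.0301 (limma) and an adjusted p of 0.998. CDK4, the partner kinase of cyclin D, stood at 35.1, 32.9 and 33.5 FPKM against 34.4, 27.4 and 28.98 FPKM. Its 6 values were the most even of the list, with a highest value 1.28 times the lowest.

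The cyclin E genes were far lower than cyclin D1 per length. CCNE1 stood at 3.53, 2.73 and 2.42 FPKM against 3.00, 2.58 and 2.74 FPKM, and the log2 difference was 0.04 (limits -0.38 to 0.45). CCNE2 stood at 0.209, 0.399 and 0.0999 FPKM against 0.478, 0.476 and 0.164 FPKM and was below the filter of 0.5 FPKM in 3 libraries. Values of this size rest on few reads. CDK2, the kinase of cyclin E, stood at 3.03, 4.36 and 0.542 FPKM against 3.49, 3.48 and 2.32 FPKM. The value of miR-204-5p replicate 3 was the only 1 of the 6 under 2 FPKM and made CDK2 the most variable member, with a highest value 8.05 times the lowest. The log2 fold change of CDK2 was -0.33 (limits -1.41 to 0.74), and it was 0.20 without miR-204-5p replicate 3.

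E2F1, an activator of S-phase genes, stood at 14.5, 8.57 and 9.70 FPKM with miR-204-5p and at 8.88, 6.29 and 9.97 FPKM with miR-NC. The highest value was that of miR-204-5p replicate 1 and the lowest that of miR-NC replicate 2. The log2 fold change of E2F1 was 0.33 (limits -0.26 to 0.93) and 0.13 without miR-204-5p replicate 1; its 3' UTR holds a 7mer-A1 site. E2F2, another activator, stood at 0.425, 0.227 and 0.323 FPKM against 0.372, 0.262 and 0.291 FPKM. E2F8, a repressor of E2F targets, stood at 0.121, 0.142 and 0.0636 FPKM against 0.121, 0.0821 and 0.112 FPKM. Both were below the filter, and their groups overlapped.

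Of the licensing genes, CDT1 had the largest positive fold change of the list. It loads the helicase together with CDC6 and stood at 13.8, 7.19 and 8.71 FPKM against 6.81, 5.32 and 8.597 FPKM. Without miR-204-5p replicate 1, which held the highest value, its log2 fold change went from 0.44 (limits -0.21 to 1.08) to 0.19. CDC6 stood at 3.56, 2.77 and 2.65 FPKM against 2.98, 2.64 and 2.82 FPKM, and its groups overlapped in part, with miR-204-5p replicate 1 above every miR-NC value. ORC1, the largest subunit of the origin recognition complex, stood at 2.61, 2.90 and 1.98 FPKM against 2.66, 1.95 and 1.98 FPKM. The log2 fold changes were 0.06 for CDC6 and 0.13 for ORC1, with limits that included 0.

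The MCM helicase is a ring of 6 subunits, MCM2 to MCM7, which are needed in equal numbers. Their transcripts were unequal per length. Mean levels over the 6 libraries were 26.7 FPKM for MCM7, 21.6 for MCM3, 9.77 for MCM5, 7.63 for MCM4, 6.13 for MCM6 and 4.89 for MCM2. MCM7 and MCM3 were the highest subunits in every library. The highest subunit stood 4.38 to 5.23 times above the lowest in replicates 1 and 2 of both groups, and 7.83 and 12.1 times above it in replicate 3 of miR-204-5p and of miR-NC.

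MCM2 stood at 5.17, 7.29 and 2.32 FPKM with miR-204-5p and at 6.42, 5.66 and 2.51 FPKM with miR-NC. MCM4, described after its values were seen, stood at 10.03, 10.9 and 2.49 FPKM against 10.7, 8.92 and 2.67 FPKM. For both genes the libraries numbered 3 held the lowest value of their group. The 4 remaining libraries of MCM4 lay between 8.92 and 10.9 FPKM, and those numbered 3 stood apart at 2.49 and 2.67 FPKM. The log2 fold changes were -0.01 for MCM2 (limits -1.0 to 0.98) and 0.03 for MCM4 (limits -1.40 to 1.47). MCM7 stood at 27.01, 29.1 and 16.1 FPKM against 32.6, 24.8 and 30.5 FPKM. MCM7 was low in miR-204-5p replicate 3 alone, and its log2 fold change of -0.31 (limits -0.90 to 0.29) became -0.05 without that library. MCM3, MCM5 and MCM6 had log2 fold changes of 0.06, 0.24 and -0.09.

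GINS2, a subunit of the GINS complex that joins the MCM ring to CDC45, stood at 8.86, 4.81 and 5.57 FPKM with miR-204-5p and at 4.77, 4.003 and 4.81 FPKM with miR-NC. Overlap was avoided by the smallest margin, since the lowest miR-204-5p value and the highest miR-NC value are both 4.81 FPKM at 3 digits. The log2 fold change of GINS2 was 0.39 (limits -0.17 to 0.94) and its unadjusted p was 0.141 (limma). CDC45, MCM10 (which helps to start unwinding) and GINS1 had positive log2 fold changes of 0.28, 0.20 and 0.08. GINS3 stood at 2.67, 2.19 and 1.43 FPKM against 2.79, 2.15 and 1.47 FPKM. Its groups thus matched replicate by replicate, and its log2 difference was -0.02 (limits -0.58 to 0.54). Its 3' UTR holds an 8mer and a 7mer-A1 site.

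At the fork, PCNA, the sliding clamp of the polymerases, was the second most abundant member. It stood at 81.0, 80.5 and 59.3 FPKM against 89.0, 57.1 and 61.5 FPKM. The log2 difference was 0.10 (limits -0.44 to 0.64). FEN1, which trims the flaps of Okazaki fragments, stood at 50.1, 35.1 and 40.0 FPKM against 39.3, 27.5 and 38.0 FPKM. FEN1 was highest in miR-204-5p replicate 1 and lowest in miR-NC replicate 2, as were E2F1, CDT1, GINS2, MCM5 and other members. The log2 fold change of FEN1 was 0.25 (limits -0.25 to 0.75). POLA1, the catalytic subunit of the priming polymerase and the third member with an 8mer, stood at 1.08, 1.15 and 0.685 FPKM against 1.44, 1.41 and 0.658 FPKM. For POLA1 the log2 fold change was -0.12 (limits -0.61 to 0.36). The 3 members with an 8mer therefore gave -0.88, -0.12 and -0.02. The median log2 fold change was -0.11 over the 937 tested genes with an 8mer and 0.00 over the 7870 with a 3' UTR and no site of the 3 classes, so POLA1 lay at the middle of such genes. The sets with and without a site were not matched for transcript length or GC content, which correlated with the deviations in each library (below). Whether the site has a part in these values was not tested.

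Fold changes of the remaining fork genes lay between -0.06 and 0.16. They were 0.16 for RFC4 and 0.00 for RFC2 of the clamp loader, 0.10 for POLE, the leading-strand polymerase, -0.06 for DSCC1, a part of an alternative clamp loader, and -0.02 for CLSPN, a checkpoint mediator at the fork. UHRF1, which guides maintenance methylation to new DNA, stood at 4.52, 5.66 and 1.15 FPKM against 2.93, 4.88 and 2.51 FPKM. As with CDK2, the lowest value was that of miR-204-5p replicate 3, and the log2 fold change of UHRF1 moved from -0.01 (limits -1.07 to 1.04) to 0.49 without it. In that library, on which the values of CDK2, UHRF1 and MCM7 turned, 6 of 9 fibroblast markers had their highest level. COL1A2, a collagen chain, stood at 0.948 FPKM there and at no more than 0.00441 FPKM elsewhere. LUM, a matrix proteoglycan, stood at 0.505 FPKM against no more than 0.0357 FPKM. Both were below the filter and were named after their values were seen. Of the other 3 markers, PDGFRB had its lowest value there (0.989 FPKM), and THY1 and FAP were highest in other libraries. The summed level of the 9 markers was 6.09, 8.44 and 9.48 FPKM with miR-204-5p and 8.31, 9.41 and 4.47 FPKM with miR-NC. None of the 9 was at 0 in miR-204-5p replicate 3, and the same held in miR-204-5p replicate 2. The part of such RNA in the members' values was not tested.

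**Figure D3:**
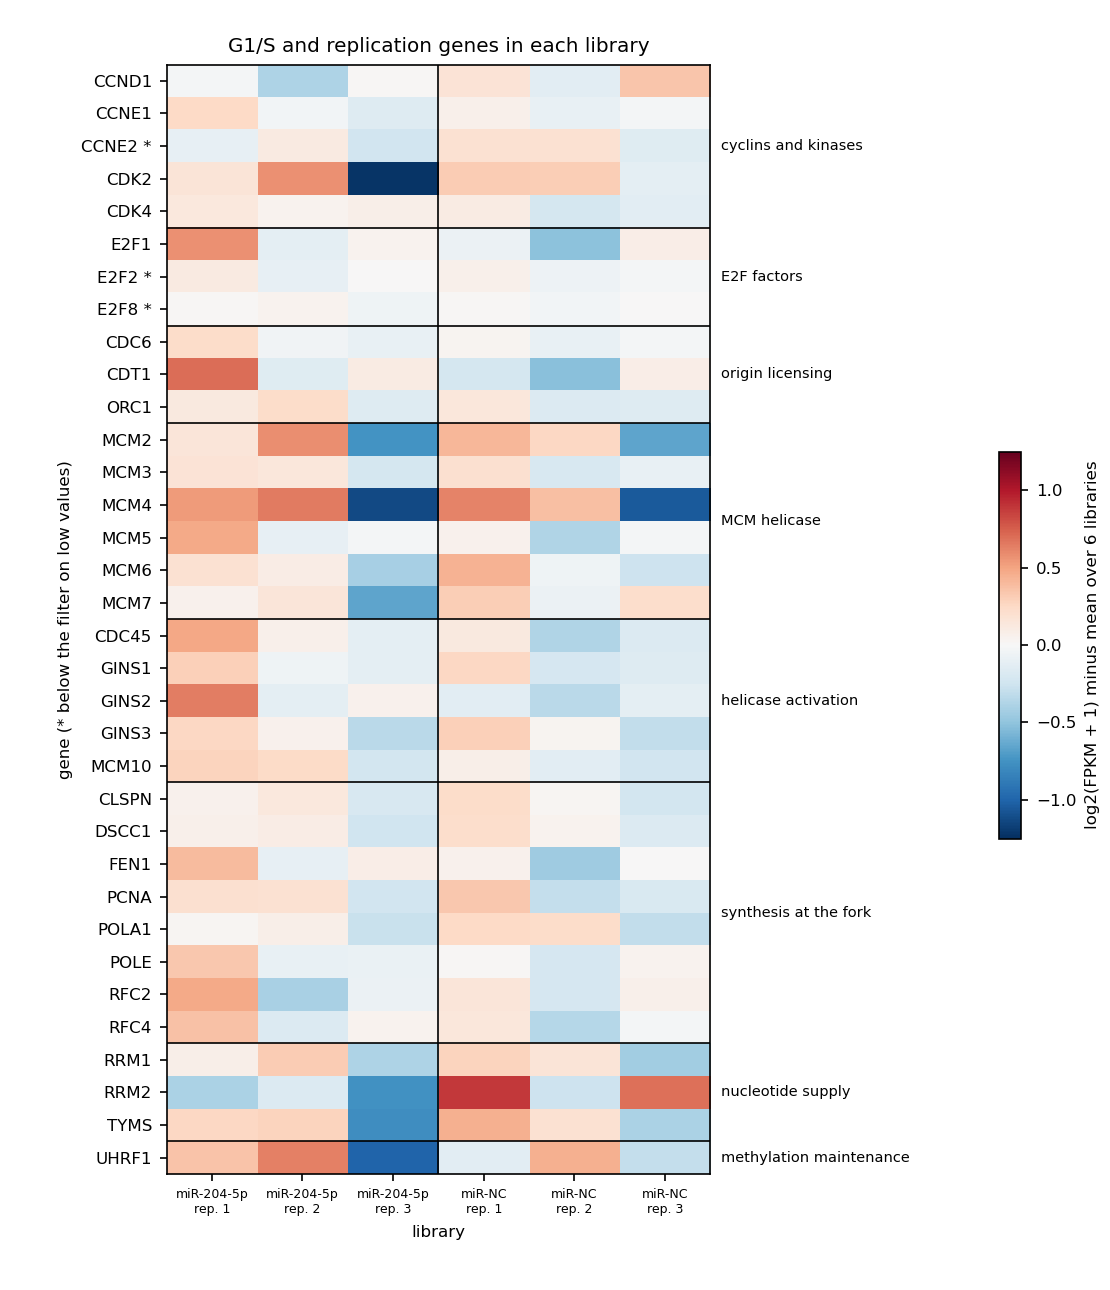
Log2(FPKM + 1) of each of the 34 members in each library, minus its mean over the 6 libraries, in rows by role and columns by library. The column of miR-204-5p replicate 1 is mostly red and that of miR-204-5p replicate 3 mostly blue, whereas few rows change between the groups of columns, GINS2 being the only tested row without overlap.

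Most members lay on the same side of their own mean over the 6 libraries in a given library, and all genes tested shared part of this. In miR-204-5p replicates 1, 2 and 3, 29, 18 and 7 of the 31 tested members lay above that mean (93.5%, 58.1% and 22.6%), against 51.4%, 61.8% and 39.0% of all genes. In miR-NC replicates 1, 2 and 3, 27, 10 and 8 members did (87.1%, 32.3% and 25.8%), against 64%, 55.6% and 37.1% of all genes. Both sets were thus mostly below their mean in replicate 3 of each group and above it in miR-NC replicate 1, while in miR-NC replicate 2 the members were mostly below it and all genes mostly above. The median deviation from that mean, on the log2(FPKM + 1) scale, was 0.25, 0.06 and -0.20 in miR-204-5p replicates 1, 2 and 3 and 0.17, -0.13 and -0.13 in miR-NC replicates 1, 2 and 3. The same median over all genes tested ran from -0.10 to 0.09. Of the 31 members, 12 had their lowest value in miR-204-5p replicate 3 and 13 in miR-NC replicate 2, which is 38.7% and 41.9%, against 26.2% and 17.9% of all genes tested. In miR-NC replicate 3 the order was the other way, with the lowest value of 12.9% of the members and 25.1% of all genes. The highest over the lowest of the 6 values had a median of 1.99 in the members and of 1.96 in all genes with values above 0 throughout.

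The G2/M and mitosis genes, a list of 30 kept for comparison, followed the library in a related way. Their median deviation was 0.18, 0.11 and -0.40 with miR-204-5p and 0.29, 0.11 and -0.26 with miR-NC. They were thus below their mean in replicate 3 of both groups and above it elsewhere, which are also the signs of the median over all genes tested in each library. The G1/S members differed from both in being below it in miR-NC replicate 2. Of the 30 genes 10 were positive and 20 negative, with a median log2 fold change of -0.04, and 0 had an unadjusted p under 0.05 (limma). TOP2A, the topoisomerase that untangles chromosomes, stood at 8.78, 12.3 and 5.69 FPKM against 12.4, 12.1 and 6.98 FPKM. MKI67, a proliferation marker, ran another way, with 3.75, 1.58 and 3.39 FPKM against 1.73, 4.47 and 3.63 FPKM. CCNA2, cyclin A2, and CDK1, the mitotic kinase, had log2 fold changes of -0.31 and 0.09. In bulk RNA, fewer cells in a phase and less transcript per cell cannot be told apart.

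CDKN1A and RB1, brakes upstream of the G1/S step, also differed between libraries of the same group. CDKN1A, the CDK inhibitor p21, stood at 175, 33.7 and 146 FPKM with miR-204-5p and at 32.9, 33.7 and 165 FPKM with miR-NC. RB1, the retinoblastoma protein that holds E2F factors inactive, stood at 0.476, 4.59 and 0.360 FPKM against 2.72, 5.38 and 0.439 FPKM. The 3 libraries high in CDKN1A (miR-204-5p replicates 1 and 3 and miR-NC replicate 3) were the 3 lowest in RB1. Other tested brakes, looked at afterwards, did not follow CDKN1A. CDKN1B, CDKN2B, GADD45A and BTG2 had their 3 lowest values in these libraries, and CDKN2A, CDKN2C and CDKN2D did not divide the libraries so. By their median the members did not divide the libraries in that way. The highest median deviation was that of miR-204-5p replicate 1 and the lowest that of miR-204-5p replicate 3. Some single members did, and examples were picked after their values were seen. E2F1 and CDT1 had their 3 highest values in the 3 libraries high in CDKN1A. MCM2 and RRM1 had their 3 lowest values there. Log2 fold changes between the groups were 0.74 for CDKN1A (limits -1.20 to 2.68) and -0.54 for RB1 (limits -2.21 to 1.14).

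**Figure D4:**
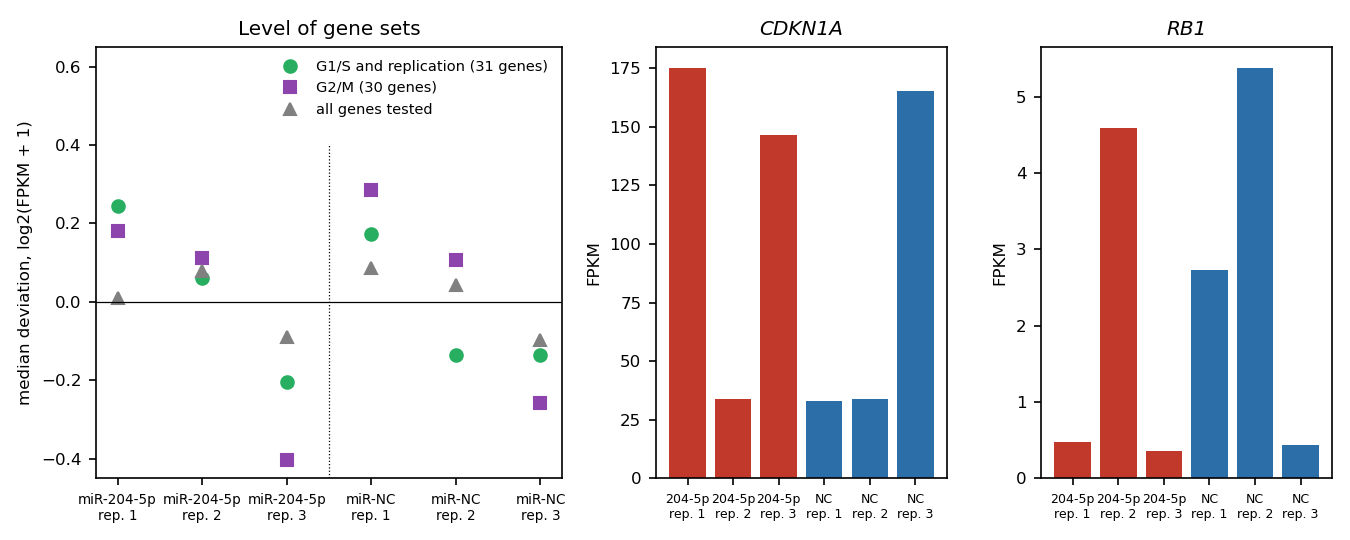
Left, the median over genes of log2(FPKM + 1) minus the mean over 6 libraries, for 31 G1/S and replication genes, 30 G2/M genes and all genes tested, in each library. Middle and right, bars of FPKM of CDKN1A and RB1 with miR-204-5p in red and miR-NC in blue, where CDKN1A runs from 32.9 to 175 FPKM and RB1 from 0.360 to 5.38 FPKM.

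Transcript composition also moved with the libraries. Across 10911 tested protein-coding genes, the deviation of a gene correlated with the GC content of its transcript (Spearman's rho across genes, which are not independent) at 0.32 and 0.34 in miR-204-5p replicates 1 and 3 and at 0.41 in miR-NC replicate 3. It was -0.38 in miR-204-5p replicate 2 and -0.34 and -0.43 in miR-NC replicates 1 and 2. The libraries with a positive correlation were thus the same ones that were high in CDKN1A and low in RB1. In the 31 members the signs were the same in each library, from -0.45 to 0.43. With transcript length the correlation over all genes was -0.33, 0.41 and -0.40 in miR-204-5p replicates 1, 2 and 3 and 0.39, 0.42 and -0.37 in miR-NC replicates 1, 2 and 3. In the members it was weaker, from -0.209 to 0.285, and in miR-NC replicate 1 its sign was the opposite (-0.097). The transcripts of CDT1 and E2F1 had the highest GC contents of the members, 64.9% and 62.5%. In miR-204-5p replicate 3, RN7SK, a small nuclear RNA without a poly(A) tail, stood at 361 FPKM, against 5.24 to 14.5 FPKM elsewhere. In that library the 24 rows named FP236383 or FP671120 held 8.28% of the summed FPKM, against 0.32% to 0.46% elsewhere. Rows named as ribosomal RNA precursors held 0.26%, against 0.05% to 0.10%, and ribosomal sequence in rows with other names was not counted. The part of GC content, of length, of these rows or of RNA without poly(A) tails in the values of the members, CDKN1A and RB1 was not tested.

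In other genes of the pathway no difference passed the test either. Of 101 genes in 7 further lists, 96 were tested. Of these 52 were positive and 44 negative, with a median log2 fold change of 0.02. None of the 96 had an adjusted p under 0.05, and none an unadjusted p under 0.05 (limma), against 2.08% of all genes. Values of the groups did not overlap in 4 of the 96 (4.17%, against 5.95% of all genes). These were POLA2, a primase-polymerase subunit, and UMPS, of pyrimidine synthesis, which were higher, and POLE3, a small polymerase subunit, and CDKN2C, a CDK4 inhibitor, which were lower. POLA2 stood at 6.86, 6.05 and 6.41 FPKM against 5.78, 5.30 and 5.80 FPKM.

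The medians by list were 0.10 for other licensing and fork factors (12 of 19 positive), 0.04 for other polymerases and fork enzymes (12 of 20) and 0.04 for other nucleotide supply genes (8 of 12). They were 0.07 for replication-coupled chromatin genes (7 of 11) and 0.01 for other cyclins and kinases (6 of 10). For pocket proteins and E2F partners the median was -0.07 (5 of 16 positive), and for CDK inhibitors -0.05 (2 of 8).

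Letters of the E2F motif stood near the start of many members, though not of all. The motif was searched on both strands as TTTCGCGC, TTTGGCGC and TTTCCCGC, from 250 bases before to 50 bases after the start (RefSeq promoters, GRCh38.p14). The table held a promoter for 27 members. Of these 17 had a match, or 63.0% (exact 95% interval 42.4% to 80.6%, for counting error), against 3.30% of 27305 genes with a promoter and 5.93% of the 9104 tested genes among them. Counting overlapping matches, 18 of the 24 lay within 100 bases of the start.

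Windows of 30 bases around matches are shown for members in which the matches on both strands overlap (MCM6, MCM2) and for E2F1 and CDC6, whose products act early in this sequence of events. Capitals mark every matched base. They lie at chr2:135876515-135876544 (first of MCM6, minus strand), chr2:135876577-135876606 (second of MCM6, minus strand), chr3:127598402-127598431 (MCM2, plus strand), chr20:33686387-33686416 (E2F1, minus strand) and chr17:40287875-40287904 (CDC6, plus strand).
MCM6, first: cattggtcaggTTTGGCGCGAAAtctccag
MCM6, second: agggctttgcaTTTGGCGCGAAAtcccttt
MCM2: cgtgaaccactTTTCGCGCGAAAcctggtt
E2F1: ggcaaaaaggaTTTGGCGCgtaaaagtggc
CDC6: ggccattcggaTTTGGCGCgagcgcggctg

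Both windows of MCM6 carry the same run of matched bases. A match is a description of letters and not a measured binding site. RRM2, RRM1, CCNE1, CDK4, ORC1, CDC45, MCM10, FEN1, RFC2 and RFC4 held none of the 3 motifs in this window. The 16 tested members with a match had a median log2 fold change of 0.02 (8 positive), and the 10 without one a median of 0.14 (7 positive), a difference that was not tested.

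**Figure D5:**
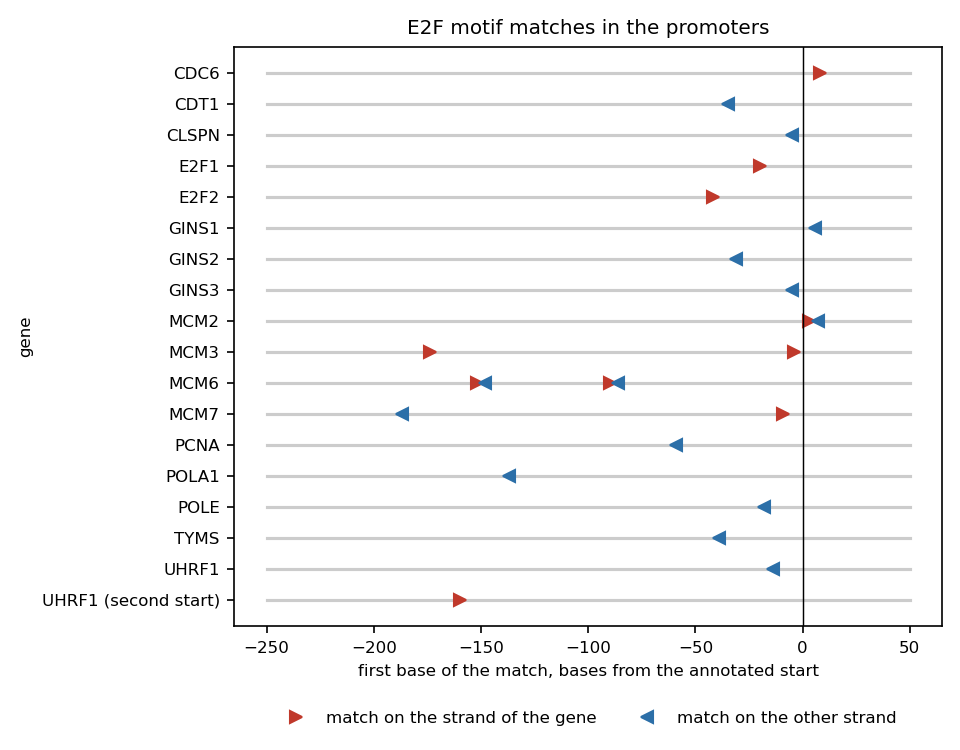
Position of the first base of each E2F motif match, in bases from the annotated start, in the promoters of the 17 members with a match; red triangles are matches on the strand of the gene and blue triangles on the other. Most lie within 100 bases of the start, and MCM6 has 2 separate clusters, each of overlapping matches.

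As a check of the label, 9 of 14 markers of pigment epithelium passed the filter. KRT8 and KRT18, epithelial keratins, had mean levels of 143 and 228 FPKM with miR-204-5p and 137 and 211 FPKM with miR-NC. EZR, another of these markers, stood at 128, 140 and 111 FPKM against 186, 194 and 165 FPKM. It was the 1 of 9 tested markers whose groups did not overlap (11.1%, against 5.95% of all genes). The log2 fold change of EZR was -0.52 (limits -0.92 to -0.13). Its unadjusted p was 0.0157 (limma), where 2.08% of all genes were under 0.05, and EZR was not called. The visual cycle gene RPE65 stood at a mean of 0.0147 and 0.0122 FPKM, and TYR and TTR were listed at 0. Of the markers of other cell types, 2 of 9 for photoreceptors and neurons, 3 of 9 for fibroblasts and 1 of 8 for immune and endothelial cells passed the filter. The precursor gene MIR204 was listed at 0 in all 6 libraries, and its host TRPM3 had means of 0.0348 FPKM with miR-204-5p and 0.0384 FPKM with miR-NC. Poly(A) RNA libraries of this kind do not measure a transfected mature microRNA, so its level was not checked.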

How the data were processed

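Per the labels, poly(A) RNA was made into dUTP strand-marked libraries and read as paired ends of 150 bases. The authors deposited FPKM per gene and library, with 0.0001 in place of 0, which was read as 0. Tools named in the submitters' processing notes are StringTie 1.3.4d, HISAT2 2.0.4, DESeq2, edgeR and cutadapt 1.9, with the build GRCh38. Their roles, the annotation and any strand setting were not given in the sources used here. Each deposited row also holds the authors' ratio (fold), its log2, a q-value and a p-value.

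A count test had been planned for the case of counts; with FPKM the planned replacement was used. Genes with at least 0.5 FPKM in at least 3 libraries (13151 of 60612) were tested with limma 3.58.1 (R 4.3.3) and an intensity trend on log2(FPKM + 1), two-sided, without covariates. P-values were adjusted over all tested genes (Benjamini-Hochberg, threshold 0.05). Of the 34 members 31 were tested; CCNE2, E2F2 and E2F8 were below the filter. Nothing says that the libraries came from separate cultures beyond the word biological, so p-values measure the spread between these libraries.

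Depth was roughly estimated from the step of FPKM times length in genes with 1 transcript, at about 19000000 to 23300000 read pairs per library, where 29.6% to 36.3% of low values lay within 1% of a multiple of 0.5 steps. At that depth 1 FPKM over 2 kb is about 38.0 to 46.6 pairs, so values far below 1 are imprecise.

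The members and lists were chosen with earlier results of these data known. Values in every library are given for members with an unadjusted p under 0.05 or groups that do not overlap, the 3 largest changes in each direction, the 5 highest levels and 15 members named whatever they showed. RRM1, MCM4, UHRF1, GINS3 and POLA1 were added after their values were seen. Sites and transcript features came from GENCODE 29, promoters and the microRNA from RefSeq, matched by symbol. Python 3.11.15 was used. Alternatives were the filter, the pseudocount, scaling, the trend, the replicate number as a block and leaving out libraries.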

Additional observations from a re-analysis of the deposited data

How the results depend on the processing

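No member was called under any alternative that was fitted. Of 431 values of member fold changes under these, 385 kept their sign and 0 had an adjusted p under 0.05 (limma). Sign changes by more than a standard error were those of CDK2 (0.20) and UHRF1 (0.49) without miR-204-5p replicate 3, and over left-out libraries CDK2 ran from -0.70 to 0.20 and UHRF1 from -0.33 to 0.49. The count of members at an unadjusted p under 0.05 was 1. It was 2 with quantile normalization (CCND1 beside RRM2), 0 with the replicate block, 0 to 1 when single libraries were left out and 0 without both libraries numbered 3, an alternative added after seeing the data; the cause was not tested. RRM2 ran from -1.23 to -0.60 over all alternatives, with unadjusted p-values (limma) of 0.00274 to 0.188, and was -1.07 with a pseudocount of 0.1. Over all genes, 0 were called, and 0 to 3 when single libraries were left out (3 without miR-204-5p replicate 2); 273 genes had an unadjusted p under 0.05, 731 without a filter, and 156 to 740 when single libraries were left out.

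With the replicate number as a block, RRM2 had an unadjusted p of 0.0504 (limma), and 941 genes were under 0.05. Deviations from the group means correlated between libraries of the same number at 0.04 (number 1), 0.55 (number 2) and 0.52 (number 3). In each group the deviations of a gene sum to 0, so these correlations depend on one another. They cannot decide whether the numbers pair the libraries, and the main fit did not pair them. Replicate 1 of miR-204-5p correlated better with replicate 3 of miR-NC (0.16), and replicates 2 and 3 of miR-204-5p best with their own number. The median of the members ran from -0.05 to 0.18. The E2F motif share was 59.3% from 100 bases before the start on, against 1.67% of all genes with a promoter and 2.87% of the tested genes among them. With 3 libraries a group, the 95% limits ran from -0.20 to 0.53 for CDK4, an even member, and from -1.40 to 1.47 for MCM4, an uneven one, so the precision differed widely between members. RRM2 was not called although its limits excluded 0, since p-values were adjusted over all genes.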
